A study of Saccharomyces cerevisiae with 18 samples.

Results

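Of the 5716 yeast probe sets tested, 8 belonged to genes that make, take up or recycle inositol or that control these steps. They were chosen by gene symbol in the platform annotation: INO1 (YJL153C), INO2 (YDR123C), INO4 (YOL108C), OPI1 (YHL020C), ITR1 (YDR497C), ITR2 (YOL103W), INM1 (YHR046C) and SCS2 (YER120W). Each of the 8 genes had 1 probe set, and all 8 were measured on all 18 arrays and entered every test that used the full set of probe sets. None of the 8 genes overlaps another gene in the RefSeq annotation of assembly R64.

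Inositol is a sugar alcohol from which yeast builds phosphatidylinositol, and cells can either make it from glucose 6-phosphate or import it. The heterodimer of Ino2 and Ino4 activates INO1 and many phospholipid genes, and the repressor Opi1 switches these genes off. Opi1 is held at the endoplasmic reticulum by phosphatidic acid and the membrane protein Scs2, and it enters the nucleus when inositol is plentiful and phosphatidic acid is drawn into phosphatidylinositol.

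The study exposed cultures of Saccharomyces cerevisiae to extracts of horsetail (Equisetum arvense) from different countries and measured their mRNA on Affymetrix Yeast Genome 2.0 arrays. All cultures were of BY4743, a diploid laboratory strain (homozygous for ura3∆0, leu2∆0 and his3∆1, and heterozygous for met15∆0 and lys2∆0), grown to log phase in minimal medium with uracil. They received 2.5 mg/mL of dried extract for 20 min, with 2 arrays each for USA #2, USA #6, USA #7, Europe #11 and India #13 and 4 for China #8, or served as control (4 arrays). For control the labels give the extract as none. The study's text calls it non-treated in its methods and vehicle only in its results. Sample titles carry an earlier or a later date, here called the title date, and what it dates is not stated in the sources used here. The earlier title date covers 2 control and 2 China #8 arrays (replicates 1 and 2 of each), and the later one covers all others, so the other 5 extracts cannot be compared with control at the earlier date. On the 4 control and China #8 arrays of the later title date, the value of the 18S rRNA probe set at the 3′ end minus that at the 5′ end was -1.54 to -1.12, while on the other 14 arrays it was -2.85 to -2.08 (log2).

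Values are given on the log2 scale of the robust multi-array average (RMA), on which 1 unit is a doubling. They are relative to the other probe sets of an array, and in RNA from a whole culture fewer expressing cells and less RNA per cell cannot be told apart. Differences were tested with limma across all 5716 probe sets and called where the adjusted p was under 0.05. In the comparison of 12 extract arrays (all but USA #6) with the 4 controls the adjustment was Bonferroni's, and in comparisons of a single extract it was Benjamini-Hochberg's. All comparisons with control share the same control arrays.

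Exposure to the extracts lowered 4 of the 8 genes in the pooled comparison: INO1, INO4, OPI1 and ITR1. Over all probe sets, 1.50% were called lower there. The study had already reported these 4 genes as downregulated from the same arrays, so their count is no independent result. Its text also describes INO2 as downregulated. The synthase gene INO1 fell 4.11-fold, the activator gene INO4 2.16-fold, the repressor gene OPI1 2.10-fold and the major transporter gene ITR1 2.45-fold. Each of these 4 genes was lower on all 14 extract arrays, USA #6 included, than on any control array. The remaining genes, INO2, ITR2, INM1 and SCS2, were not called in the pooled comparison. INO2 differed there by -0.33 (SE 0.13). The fall of INO2 that the study describes was thus not called in the pooled comparison. The median change of the 8 genes was -0.70, beside a median of 0.01 over all probe sets.

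**Figure D1:**
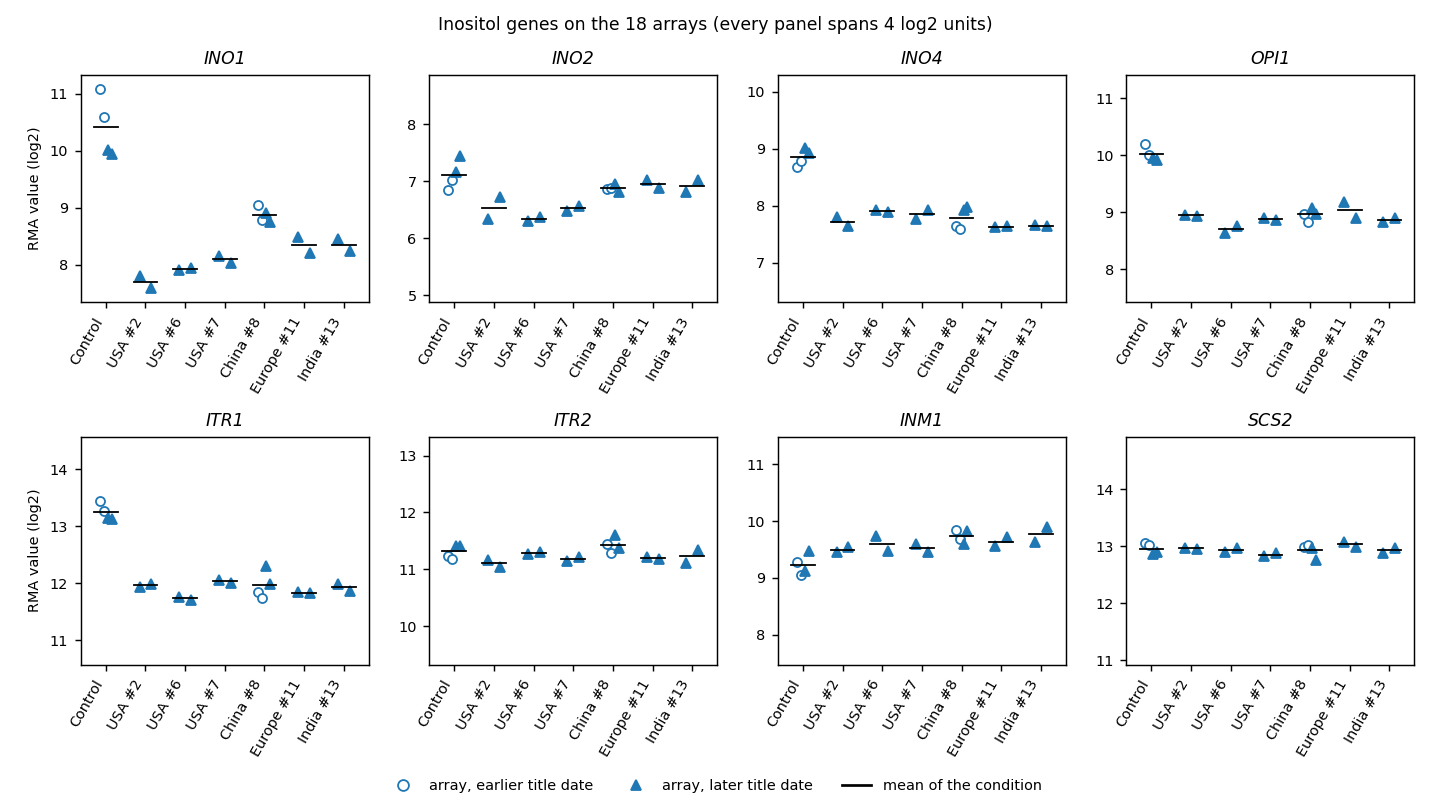
RMA values (log2) of the 8 inositol genes on the 18 arrays, 1 panel per gene and 1 column per condition, with open circles for the earlier title date, filled triangles for the later and lines for condition means; every panel spans 4 log2 units. INO1, INO4, OPI1 and ITR1 lie lower on all 14 extract arrays than on the 4 control arrays, INM1 lies higher on 12 of 14, and ITR2 and SCS2 overlap control.

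With single extracts, the same 4 genes, INO1, INO4, OPI1 and ITR1, were called lower in each of the 6 comparisons. INO2, the gene of the other activator subunit, was called lower too with USA #2, USA #6 and USA #7. The share of all probe sets called lower was 8.48% with USA #2, 2.90% with USA #6, 19.1% with USA #7, 20.1% with China #8, 10.0% with Europe #11 and 14.6% with India #13. INM1, which encodes the inositol monophosphatase that releases free inositol, was called higher with 3 extracts. There 19.9% (China #8), 12.4% (Europe #11) and 14.2% (India #13) of all probe sets were called higher. As a count, 1 of 8 genes is near that background.

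INO1 encodes inositol-3-phosphate synthase, the committed step of inositol synthesis. On the control arrays its values were 11.09 and 10.60 at the earlier title date and 10.02 and 9.94 at the later. It lay at 7.81 and 7.59 with USA #2, at 7.91 and 7.95 with USA #6, and at 8.16 and 8.03 with USA #7. The 3 USA extracts thus held the 6 lowest of the 18 values. Europe #11 gave 8.48 and 8.20, India #13 gave 8.46 and 8.25, and China #8 gave 9.05 and 8.78 (earlier) and 8.91 and 8.76 (later). The China #8 arrays were the highest of the extract arrays, and their top value was still 0.89 below the lowest control.

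The pooled difference of INO1 from control was -2.04 (SE 0.25, Bonferroni-adjusted p = 0.00168 by limma). By extract it was -2.72 with USA #2, -2.48 with USA #6, -2.31 with USA #7, -2.07 with Europe #11 and -2.06 with India #13 (SE 0.24 each), and -1.54 with China #8 (SE 0.19). These are changes of 6.57-fold with USA #2 and 2.91-fold with China #8, the ends of the range. INO1 ranked 7 of 5716 by the size of its fall in the pooled comparison and 2 of 5716 with USA #2.

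The size of the INO1 change depended on which control arrays were used. Against the controls of the later title date alone, the INO1 differences were -2.28 with USA #2, -2.04 with USA #6, -1.88 with USA #7, -1.64 with Europe #11, -1.62 with India #13 and -1.15 with China #8 (SE 0.12 each), and all 6 were called (highest adjusted p 0.000185, limma). In these later-date comparisons, 35.2%, 17.2%, 49.1%, 36.9%, 42.4% and 29.7% of all probe sets were called in either direction, in the same order of extracts. The rRNA difference described above was -1.54 to -1.12 on the later control and China #8 arrays. On the arrays of the other extracts it was -2.83 to -2.34. Its part in comparisons with the later controls was not tested. The pooled later-date difference was -1.71 and was not called (Bonferroni-adjusted p = 0.150) in a fit that treats all extract arrays as 1 group.

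**Figure D2:**
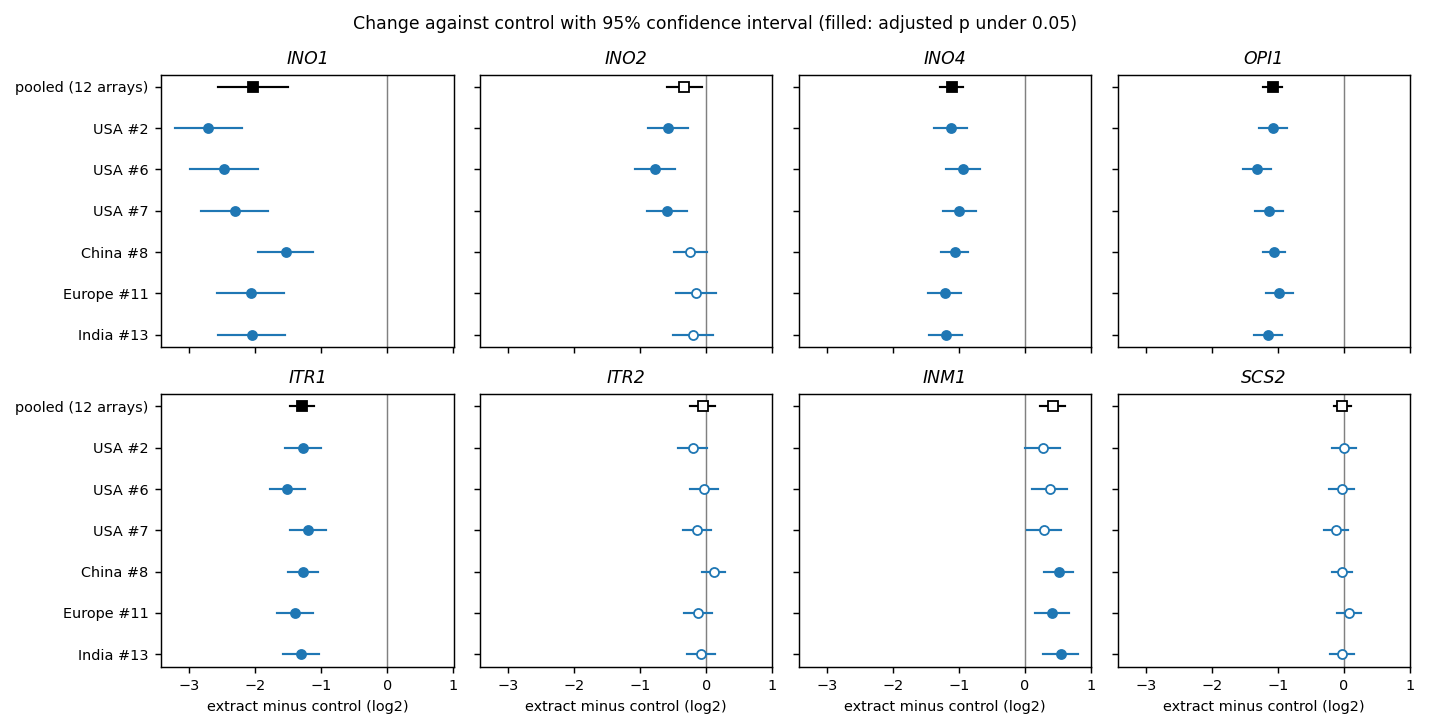
Difference from control (log2) of the 8 genes, with the pooled comparison of 12 extract arrays on top (squares) and the 6 extracts under it (circles); bars are 95% confidence intervals of the limma fits and filled symbols passed an adjusted p of 0.05. INO1 runs from -2.72 (USA #2) to -1.54 (China #8), INO4, OPI1 and ITR1 lie between -1.52 and -0.94 with every extract, and INO2 is filled only for the 3 USA extracts.

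In the order of mean levels, INO1 went from USA #2 (7.70) over USA #6 (7.93), USA #7 (8.10), Europe #11 (8.34), India #13 (8.36) and China #8 (8.87) to control (10.41). No 2 extracts that are neighbours in this order differed beyond their spread (lowest adjusted p 0.153, India #13 and China #8), and China #8 and control did. An F-test over the 6 extracts called INO1 (adjusted p = 0.0186) and INO2 (adjusted p = 0.0270) as different among extracts and none of the other 6 genes. That test called 29.7% of all probe sets, so 2 of 8 is near the background.

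Of 15 pairs of extracts, INO1 differed in 3, all with China #8 as the higher. China #8 exceeded USA #2 by 1.18 (SE 0.24, adjusted p = 0.0109), USA #6 by 0.94 (adjusted p = 0.0326) and USA #7 by 0.78 (adjusted p = 0.0214). In these 3 pairs 8.57%, 3.22% and 17.4% of all probe sets were called higher with China #8. Over the arrays of the later title date, INO1 was also lower with Europe #11 than with China #8 (-0.49, SE 0.12, adjusted p = 0.0188) and lower with India #13 (-0.47, adjusted p = 0.0119). There 9.60% and 17.6% of all probe sets were called lower. In the same fit 3 pairs without China #8 were called: INO1 was higher with Europe #11 than with USA #2 (0.65, adjusted p = 0.0229), and higher with India #13 than with USA #2 (0.66, adjusted p = 0.0131) and USA #6 (0.42, adjusted p = 0.0489). Over the 15 pairs, 8 were called for INO1 in that fit and 3 over all arrays, beside 17.2% and 7.29% of the tests over all probe sets. Both China #8 arrays in that fit are among those with the deviating 18S rRNA difference, whose part in the result was not tested.

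ITR1 encodes the major inositol transporter of the plasma membrane. Its control values were 13.44 and 13.26 (earlier) and 13.15 and 13.12 (later). The extract arrays ran from 11.70 to 12.30, with 11.94 and 11.98 for USA #2, 11.76 and 11.70 for USA #6, a mean of 12.03 (SD 0.04) for USA #7, 11.84 and 11.83 for Europe #11 and 11.99 and 11.87 for India #13. China #8 gave 11.85 and 11.73 (earlier) and 12.30 and 11.98 (later), so it held both one of the lowest and the highest extract value. The gap between the highest extract array and the lowest control was 0.82.

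The pooled difference of ITR1 was -1.29 (SE 0.09, Bonferroni-adjusted p = 1.63e-07, limma), and single extracts lay between -1.52 (USA #6) and -1.21 (USA #7). No pair of extracts differed for ITR1 in the fit over all arrays. Over the later title date 3 of 15 pairs did: USA #7 (0.30, adjusted p = 0.0416) and China #8 (0.41, adjusted p = 0.0213) exceeded USA #6, and Europe #11 lay below China #8 (-0.31, adjusted p = 0.0492). That fit called 17.2% of the pair tests over all probe sets, so 3 of 15 is near the background. Mean levels of ITR1 spanned 0.30 over the 6 extracts, against 1.18 for INO1.

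The second transporter gene, ITR2, encodes a minor inositol permease. Its 4 control arrays were at 11.24, 11.19, 11.42 and 11.42, and its extract arrays ran from 11.05 to 11.61. The groups overlapped: no extract was called against control, and the pooled difference was -0.06 (95% confidence interval -0.24 to 0.13). China #8 was higher than USA #2 by 0.32 (adjusted p = 0.0413), 1 of 15 pairs, beside 7.29% of the pair tests over all probe sets. Against the later controls alone ITR2 was called with USA #2 (-0.31, adjusted p = 0.0344), beside 35.2% of all probe sets. The part of the rRNA difference in this call was not tested. Over the later title date China #8 was higher than USA #2 (0.38, adjusted p = 0.0146) and USA #7 (0.32, adjusted p = 0.0229). In these pairs 39.3% and 51.0% of all probe sets were called.

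INO4 and INO2 encode the 2 subunits of the activator, both of the basic helix-loop-helix family. INO4 was at 8.68, 8.79, 9.02 and 8.92 on the control arrays. With extract it was at 7.81 and 7.64 (USA #2), 7.92 and 7.90 (USA #6), 7.77 and 7.93 (USA #7), 7.62 and 7.65 (Europe #11) and 7.66 and 7.64 (India #13), and with China #8 at 7.65, 7.59, 7.92 and 7.98. No extract array reached the controls, with a gap of 0.70. The pooled difference was -1.11 (SE 0.08, Bonferroni-adjusted p = 1.35e-06, limma), from -1.21 with Europe #11 to -0.94 with USA #6. No pair of extracts differed over all arrays, and over the later title date Europe #11 (-0.31, adjusted p = 0.0289) and India #13 (-0.30, adjusted p = 0.0218) lay below China #8. In these pairs 20.6% and 35.1% of all probe sets were called.

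The INO2 values overlapped in part. The controls were at 6.84 and 7.02 (earlier) and 7.16 and 7.45 (later). The 6 arrays of the USA extracts lay below all of them, at 6.34 and 6.72 (USA #2), 6.30 and 6.38 (USA #6) and 6.48 and 6.57 (USA #7). China #8 was at 6.86, 6.88, 6.95 and 6.81, Europe #11 at 7.03 and 6.89 and India #13 at 6.81 and 7.02, within or just below the range of the controls.

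INO2 fell by 0.59 with USA #2 (adjusted p = 0.0124), 0.77 with USA #6 (adjusted p = 0.00412) and 0.59 with USA #7 (adjusted p = 0.00533; limma, SE 0.14 each). The differences with China #8 (-0.24), India #13 (-0.20) and Europe #11 (-0.15) were not called. A direct test found China #8 higher than USA #6 by 0.53 (adjusted p = 0.0413), and no other pair of extracts differed over all arrays. Over the later title date 4 of 15 pairs were called: China #8 (0.53), Europe #11 (0.62, adjusted p = 0.0327) and India #13 (0.57, adjusted p = 0.0311) exceeded USA #6, and Europe #11 exceeded USA #7 (0.44, adjusted p = 0.0366). Over all probe sets 7.29% of the pair tests were called over all arrays and 17.2% over the later title date. The call with USA #2 was lost without its replicate 1 (-0.40, adjusted p = 0.171), that with USA #6 without its replicate 1 (-0.73, adjusted p = 0.0816) and that with USA #7 without its replicate 1 (-0.55, adjusted p = 0.0551). China #8 was called when control replicate 1 was left out (-0.33, adjusted p = 0.0257). Without the later control and China #8 arrays, the call with USA #2 was lost (-0.40, adjusted p = 0.0512). Against the later controls alone INO2 was also called with China #8 (-0.43, adjusted p = 0.0397) and India #13 (-0.39, adjusted p = 0.0438). There 29.7% and 42.4% of all probe sets were called. The later controls and China #8 arrays share the deviating rRNA difference and the India #13 arrays do not, and its part was not tested.

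OPI1 encodes the repressor of the Ino2-Ino4 targets. It was at 10.20, 10.00, 9.96 and 9.92 on the control arrays. USA #2 gave 8.96 and 8.94, USA #6 8.64 and 8.76, USA #7 8.91 and 8.86, Europe #11 9.19 and 8.91, India #13 8.84 and 8.90, and China #8 8.98, 8.83, 9.07 and 8.98. The groups were apart by 0.73, and the 2 Europe #11 arrays lay farther from each other than those of any other extract with 2 arrays. OPI1 fell by 1.07 in the pooled comparison (SE 0.07, Bonferroni-adjusted p = 9.22e-08, limma) and differed by -0.97 (Europe #11) to -1.32 (USA #6) with single extracts. No pair of extracts differed over all arrays, and over the later title date China #8 exceeded USA #6 (0.32, adjusted p = 0.0443), where 17.4% of all probe sets were called.

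SCS2 encodes the membrane protein that binds Opi1 at the endoplasmic reticulum. Its values ran from 12.86 to 13.06 on the control arrays and from 12.76 to 13.08 on the extract arrays. The pooled difference was -0.02 (95% confidence interval -0.15 to 0.11), no extract was called, and differences with single extracts lay between -0.12 and 0.08. When the 4 later arrays of control and China #8 were left out, SCS2 was called with USA #7 (-0.20, adjusted p = 0.0448). The interval leaves out changes of the size seen for OPI1.

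INM1 moved the other way. Its control arrays were at 9.28, 9.06, 9.12 and 9.47. China #8 gave 9.84, 9.69, 9.60 and 9.83, India #13 9.64 and 9.90, and Europe #11 9.56 and 9.72. These 8 arrays were above every control. USA #2 was at 9.46 and 9.54, USA #6 at 9.73 and 9.48 and USA #7 at 9.59 and 9.46, so that 2 of these 6 arrays fell inside the control range.

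INM1 was higher by 0.51 with China #8 (SE 0.10, adjusted p = 0.00115), by 0.54 with India #13 (SE 0.12, adjusted p = 0.00532) and by 0.41 with Europe #11 (adjusted p = 0.0274, limma). The differences with USA #2 (0.27), USA #6 (0.37) and USA #7 (0.29) were not called, and no pair of extracts differed over all arrays or over the later title date, so a difference between the USA extracts and the others was not shown. The pooled difference of 0.42 did not pass Bonferroni's adjustment (unadjusted p = 0.000234) and passed Benjamini-Hochberg's (adjusted p = 0.00236). The Europe #11 call was lost without control replicate 2 or 3 or either Europe #11 array (adjusted p between 0.0564 and 0.215) and against the later controls alone (0.35, adjusted p = 0.0758), and the India #13 call without its replicate 2 (0.41, adjusted p = 0.0770). For the later controls the rRNA limit given above holds. Without control replicate 4, the highest control, USA #6 (adjusted p = 0.0296) and USA #7 (adjusted p = 0.0240) were called. USA #6 (0.43, adjusted p = 0.0461) and USA #7 (0.35, adjusted p = 0.0466) were also called without the later control and China #8 arrays.

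Control and China #8 were the only conditions with arrays of both title dates. Among the 8 genes, INO1 alone differed between the title dates in control, where later minus earlier was -0.87 (SE 0.16, adjusted p = 0.00893, limma), 1 of 8 genes beside 10.2% of all probe sets. Without control replicate 1 this difference was -0.62 and not called (adjusted p = 0.0883). In China #8 INO1 differed by -0.08 between the dates, and INO4 was the gene called, higher by 0.33 at the later date (adjusted p = 0.0399), beside 6.25% of all probe sets.

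Within the earlier title date, the difference of China #8 from control was -1.93 for INO1, and within the later it was -1.15 (SE 0.16 each). It was -1.56 and -0.997 for ITR1, -1.19 and -0.92 for OPI1 and -1.11 and -1.02 for INO4, in the same order of dates. The difference between the 2 responses was 0.78 for INO1 (SE 0.22, unadjusted p = 0.00384, adjusted p = 0.172) and 0.56 for ITR1 (SE 0.14, unadjusted p = 0.00188, adjusted p = 0.164). None of the 8 genes passed this test by limma, which called 0.0350% of all probe sets, while 919 of 5716 had an unadjusted p under 0.05. Without control replicate 2 both genes passed, INO1 with 1.03 (adjusted p = 0.0246) and ITR1 with 0.65 (adjusted p = 0.0343). The later arrays of both conditions are the 4 with the deviating 18S rRNA difference, which cannot be told apart from the title date here.

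**Figure D3:**
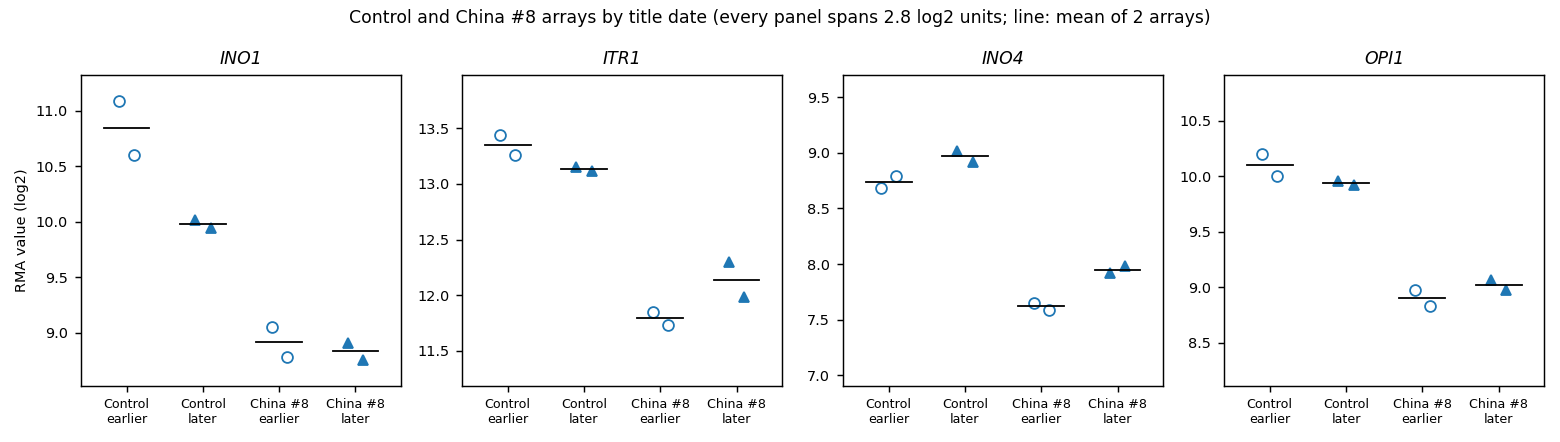
RMA values (log2) of INO1, ITR1, INO4 and OPI1 on the control and China #8 arrays, split by title date, with 2 arrays in each column and lines for their means; all panels span the same number of log2 units. INO1 in control is lower at the later date (10.02 and 9.94 against 11.09 and 10.60), and China #8 lies below control at both dates for all 4 genes.

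The genes whose values followed INO1 most closely over the 18 arrays were OPI3 (Pearson r = 0.96), CHO2 (0.94), OPI1 (0.92), EHT1 (0.92) and ITR1 (0.90). OPI3 and CHO2 encode the methyltransferases that turn phosphatidylethanolamine into phosphatidylcholine, and EHT1 encodes an acyltransferase that forms fatty acid ethyl esters. The 18 points share the step from control to extract. Over the 14 extract arrays alone r was 0.83 for OPI3 and 0.77 for CHO2, and it was 0.48 for EHT1, 0.40 for OPI1 and 0.18 for ITR1. Other genes came closer there, led by UBP13 (0.92), MIH1 (0.92), LCP5 (0.89), FAA3 (0.89) and FES1 (0.88), which were looked up after the values were seen. By Spearman's rank correlation over the 18 arrays OPI3 (0.95) and CHO2 (0.88) stayed first, followed by PTR2 (0.87), PTP2 (0.83) and LHS1 (0.81). OPI3 fell by 0.97 in the pooled comparison, EHT1 by 0.81 and CHO2 by 0.74. Over the later title date alone, the pooled differences of EHT1 (-0.68) and CHO2 (-0.74, Bonferroni-adjusted p = 0.102) were not called. For that comparison the rRNA limit given above holds.

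Over the 7 condition means the order was RSM22 (r = 0.99), OPI3 (0.98), LAM4, CHO2 (0.96 each) and RCK1 (0.95). RSM22 encodes a mitochondrial ribosomal protein, LAM4 a sterol transfer protein of membrane contact sites and RCK1 a protein kinase. RSM22, LAM4 and RCK1 had pooled differences of -0.25, -0.41 and -1.12, none of them called with Bonferroni's adjustment, and their r over the 18 arrays was between 0.61 and 0.70. By Spearman's rank correlation over the 7 means the first 5 were YTA12, PBP4, RSM22, ASK10 (0.96 for the last 3) and PSP2 (0.93). Of the genes first by Pearson's r, RSM22 alone stayed among them.

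Genes of phospholipid synthesis and, with FAS1, FAS2 and ACC1, of fatty acid synthesis that were listed as targets of Ino2-Ino4 were lowered in part. Of 14 such genes, 8 were called lower in the pooled comparison, beside 1.50% of all probe sets, and 0 higher, with a median change of -0.71. The study had already reported these 8 as downregulated from the same arrays, and the list was chosen with earlier results known. Their count beside that share is therefore no independent result. FAS1, FAS2 and ACC1 were not called in that comparison. The largest changes were in CKI1, the choline kinase (-1.38, SE 0.11), CHO1, the phosphatidylserine synthase (-1.35, SE 0.09), and PSD1, the mitochondrial phosphatidylserine decarboxylase (-1.21, SE 0.13). Tested by single extracts, 9 of the 14 were called lower with all 6 extracts and 4 with 1 to 5 of them. Over all probe sets 1.40% were called lower with all 6 and 32.0% with 1 to 5, and 34.2% were called higher with at least 1. PIS1, which joins inositol to the lipid backbone to make phosphatidylinositol, was the 1 gene never called lower (pooled difference 0.07). It was called higher with 1 extract, USA #7 (0.35), and was chosen for mention after its values were seen. Whether Ino2-Ino4 activates PIS1 was not tested, so its value is not read as that of an unresponsive target.

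Of 16 genes of inositol phosphate and phosphoinositide metabolism, 1 was called lower and 0 higher in the pooled comparison, beside 1.50% and 2.31% of all probe sets, and their median change was -0.07. With single extracts 9 of the 16 were called lower with 1 to 5 of them, beside 32.0% of all probe sets, and 0 higher. The 1 gene called in the pooled comparison was IPK1, the kinase that forms inositol hexakisphosphate (-0.64, SE 0.09, Bonferroni-adjusted p = 0.0103). IPK1 was not called without control replicate 2, 3 or 4 (adjusted p between 0.0618 and 0.133), nor over the later title date alone (-0.68, adjusted p = 0.126). For the later title date the rRNA limit given above holds.

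Of 7 genes of phosphatidic acid turnover and Opi1 tethering, 0 were called lower in the pooled comparison, beside 1.50% of all probe sets. With single extracts 1 of the 7 was called lower with all 6 (NEM1, of the phosphatase complex that activates the phosphatidate phosphatase Pah1, pooled difference -0.66, chosen for mention after its value was seen), 3 with 1 to 5, and 3 were called higher with at least 1. Over all probe sets 1.40% were called lower with all 6, 32.0% lower with 1 to 5 and 34.2% higher with at least 1. The counts of 3 of 7 are near these shares. DGK1, the diacylglycerol kinase that produces phosphatidic acid, was called higher (0.51, SE 0.08, Bonferroni-adjusted p = 0.0338), beside 2.31% of all probe sets in that comparison. Over the later title date alone, with the 18S rRNA limit given above, DGK1 was also called (0.70, Bonferroni-adjusted p = 0.0130). The pooled fit does not hold the USA #6 arrays, so leaving those out could not change it. The DGK1 call was lost when any of 13 of the 18 arrays was left out in turn (differences in those 13 fits from 0.41 to 0.54, adjusted p from 0.0513 to 0.262). It was also lost with title date as a block (adjusted p = 0.0814), with the replicate block (0.264), at equal array medians (0.132), with USA #6 included (0.112), and when the 4 later arrays of control and China #8 were left out (0.37, adjusted p = 1). Of 16 chromatin and signalling genes known to act on INO1 transcription, 0 were called in the pooled comparison in either direction, with a median of -0.07. Over all probe sets 1.50% were called lower there and 2.31% higher, so 0 of 16 is near the background. With single extracts 7 of these 16 were called lower with 1 to 5 extracts, beside 32.0% of all probe sets, and 3 higher with at least 1, beside 34.2%.

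**Figure D4:**
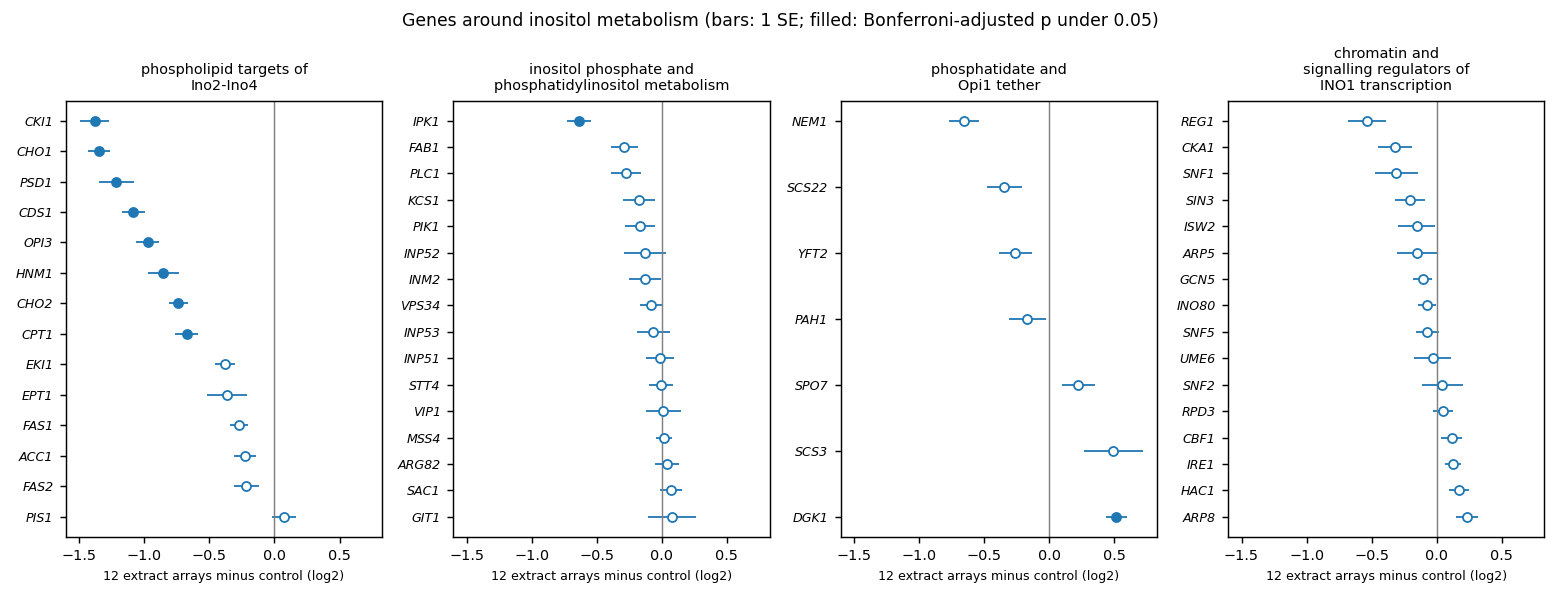
Pooled difference from control (log2, 12 extract arrays minus 4 control arrays) of the genes in 4 lists around inositol metabolism; bars are 1 SE and filled points passed a Bonferroni-adjusted p of 0.05. The filled points are 8 phospholipid genes on the left, from -1.38 to -0.67, IPK1 at -0.64 and DGK1 at 0.51.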

How the data were processed

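The deposited values are log2 expression values that the authors made from the arrays by RMA; the version of the RMA tool is not stated, and normalization acts on all 18 arrays together. Values of 5900 probe sets ran from 2.73 to 14.49, with array medians between 9.55 and 9.64. Setting aside 184 Affymetrix control probe sets left 5716, of which 5498 have 1 gene name, 218 none and 0 several; 12 names were updated through gene IDs. No member probe set is marked as matching several transcripts. The number of arrays limits precision. The study's methods call cultures biological replicates.

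Tests used limma 3.58.1 in R 4.3.3: a fit of 12 extract arrays against 4 controls (Bonferroni), a fit of 7 conditions for single extracts, pairs and the F-test, and a fit of condition by title date (Benjamini-Hochberg), with a threshold of 0.05. The fits were tested on simulated data. Alternatives were other probe sets, normalizations, variance models, adjustments, blocks and array subsets, 1 of them chosen after seeing the data. The members and gene lists were chosen with earlier results of these data known. Named were all 8 members, the 5 genes most like INO1 over arrays and over condition means, and up to 3 called genes per list. A planned relation to the inositol content of the extracts is not reported, since those contents are not among the deposited values.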

Additional observations from a re-analysis of the deposited data

How the results depend on the processing

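INO4, OPI1 and ITR1 were called lower than control in all comparisons and alternatives that held them, 204, 211 and 211 values, and INO1 in 210 of 211, the exception being the pooled later-date fit in the report. Leaving out dim probe sets removed INO2 and INO4, so the members called lower with each USA extract went from 5 to 3, and those differing among extracts from 2 to 1. The latter count became 4 with title date as a block, with the replicate block or over the later title date only, and 0 with Bonferroni's adjustment. The share of all probe sets differing among extracts was not computed for those fits, so the count of 4 cannot be set against a background. Over 15 pairs of extracts and 8 members, 5 differences were called, beside 7.29% of such tests over all probe sets. Over the later title date only the count was 20, beside 17.2% of such tests. Neither count exceeds its share. With title date as a block the count was 14, and with the replicate block 15. Without the control and China #8 arrays of the later title date (chosen after seeing the data) it was 9. For the counts of 14, 15 and 9 the share over all probe sets was not computed, so they are not read as results about the members. Bonferroni's adjustment left 0 pairs, and also 0 members differing between title dates in control.

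Leaving out 1 array at a time gave 2 to 9 called pairs, 1 or 2 members differing among extracts, 0 to 2 whose China #8 response differed between title dates, 0 or 1 differing between title dates in control, and 4 or 5 members lower with each USA extract. The shares over all probe sets were not computed for these fits. Numbers in titles were not taken to pair samples: deviations of same-numbered later arrays correlated between -0.38 and 0.57 (21 pairs). At the earlier title date the 1 pair, control and China #8, correlated at 0.75, and a pairing there was not tested further. The replicate block is given here only.

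Among single-extract calls, those of INO2 with USA #2 (adjusted p = 0.114) and USA #6 (0.0888) and of INM1 with Europe #11 (0.115) and India #13 (0.0625) were lost in fits of that extract and control alone, and Bonferroni's adjustment ended every INO2 and INM1 call.

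The changes of sign concern SCS2, ITR2 and INO2 differences near 0, none called. SCS2 became 0.017 (pooled), 0.046 (USA #6) and 0.050 (India #13) with the title date or replicate block, 0.053, 0.053 and 0.057 over the later date, -0.0045 with USA #2 at equal array medians, and -0.081 (USA #2) and -0.0092 (Europe #11) without the later control and China #8 arrays. That last setting gave ITR2 at 0.0022 (pooled), 0.070 (USA #6) and 0.020 (India #13) and INO2 at 0.037 (Europe #11). Leaving out 1 array, SCS2 ranged from -0.054 to 0.016 (pooled), -0.029 to 0.041 (USA #2), -0.066 to 0.0029 (USA #6), -0.062 to 0.029 (China #8) and -0.074 to 0.017 (India #13), and ITR2 from -0.076 to 0.0020 (USA #6) and -0.20 to 0.037 (India #13). With 2 arrays for 5 of the extracts, small differences could not be shown.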
